A study of Canis lupus familiaris with 25 samples.

Results

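The 2 malignant aspirates of the canine prostate were set against 9 malignant prostate tissues. These 11 samples are part of a series of 25 and were chosen by the diagnosis and the sample type given in their labels. Aspirates were taken through the abdominal wall with a needle under ultrasound guidance (US-FNA), diagnosed by cytology as prostate carcinoma and extracted with phenol and chloroform. Tissue was taken post mortem, diagnosed by histopathology as prostate carcinoma and extracted on columns. The sample type and the extraction method therefore cannot be told apart. Both aspirated dogs were neutered, a mixed-breed dog of 10 years (US-3) and a Miniature Pinscher of 9 years (US-4). The tissues came from 6 neutered and 3 intact dogs of 8 to 12 years (PT-1 to PT-9). The neutered dogs were a pair of Beagles, a pair of mixed-breed dogs, a Dachshound and a Tyrolean Hound, and the intact dogs were a Briard, a West Highland White Terrier and an English Bulldog. As background, 5 non-malignant aspirates and 9 non-malignant tissues, diagnosed as normal to hyperplastic, were used. All came from intact dogs, aged 4 to 10 years (aspirates) and 1 to 16 years (tissues). These aspirates came from mixed-breed dogs, a Long-Haired Collie and a Dobermann. Breeds of those tissues were Great Dane, Labrador Retriever, Cocker Spaniel, Rottweiler, Old German Shepherd Dog, Pug, Pyrenean Shepherd and mixed. No group carried an experimental treatment or a genetic alteration.

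In dogs, carcinoma of the prostate mostly lacks the secretory programme of the healthy gland, in which kallikreins and acid phosphatase are made under androgen control. A fine needle loosens single cells and small clusters, draws blood from cut vessels and leaves much of the fibrous stroma behind. Red cells carry large amounts of haemoglobin messenger RNA when young, so haemoglobin transcripts serve as a tracer of blood in a sample. In bulk RNA, fewer cells of a type and less RNA per cell cannot be told apart.

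Reads counted on genes amounted to 3966984 in US-3 and 4052454 in US-4, and to between 4455090 and 5932349 in the tissues (median 5276947). The share of alignments that the counting step tallied as without a gene was 65.8% in US-3 and 64.8% in US-4, against 59.2% to 61.7% in tissue. This difference of 4.78 percentage points was larger than the spread of the tissues (two-sided exact permutation test of 2 against 9, p = 0.0182, the smallest that 55 assignments allow, BH-adjusted 0.0455 over 5 library measures). At an equal depth of 3966984 reads, 11921 genes in US-3 and 11335 in US-4 reached 10 counts, within the range of 11236 to 12523 in the tissues (exact permutation test, p = 0.0909, BH-adjusted 0.114). The 10 most abundant genes took 9.21% of the counts in US-3 and 14.2% in US-4, and between 5.89% and 13.0% in tissue (exact permutation test, p = 0.0727, BH-adjusted 0.114). For the 100 most abundant genes the shares were 27.2%, 32.2% and 19.1% to 31.5%, respectively (exact permutation test, p = 0.145, BH-adjusted 0.145). The part of the unassigned alignments in the differences described next was not tested.

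The aspirates were about as far from each other as from the tissues. Similarity was described by Spearman's rho across the 14158 genes that passed the filter on low counts, without a test, since all genes of a library share its depth and composition. Between US-3 and US-4, rho was 0.776. The 36 pairs of tissues ranged from 0.692 to 0.922 (median 0.825), so that the pair of aspirates lay inside the spread of the tumours. US-4 had rho values of 0.755 to 0.867 with the tissues (median 0.829) and was nearest to PT-2. US-3 was more remote, with 0.703 to 0.813 (median 0.763). Only PT-1, from an intact dog, had a lower median among the 11 libraries, namely 0.741. In numbers of genes, 2585 differed more than 4-fold between the aspirates, compared with 909 to 3521 between pairs of tissues.

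**Figure D1:**
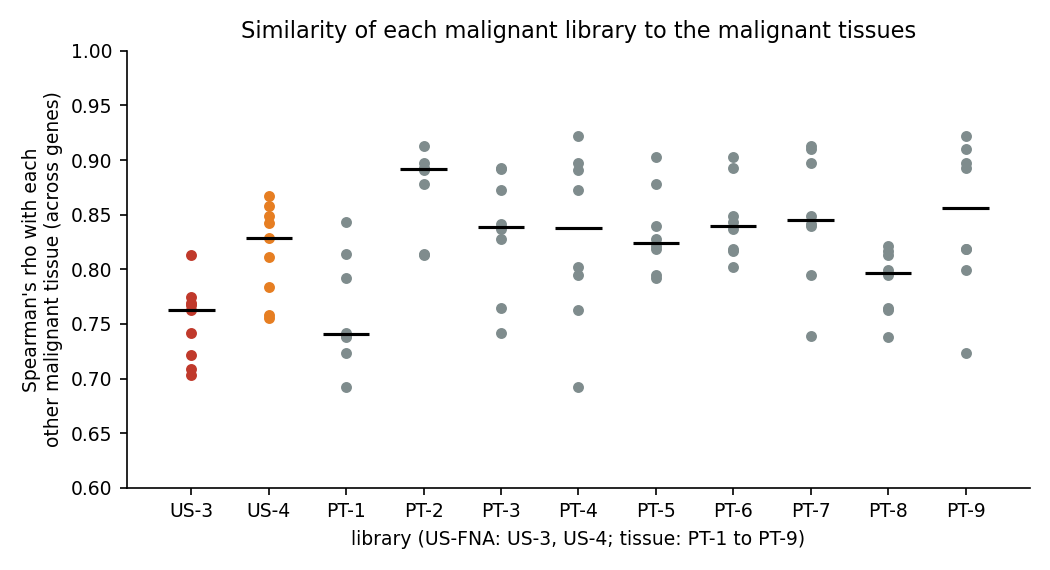
Spearman's rho across 14158 genes (y axis, no unit) of each malignant library with each other malignant tissue; points are single tissues and bars are medians. US-4 (median 0.829) sits among the tissues, whereas US-3 (0.763) lies below all of them except PT-1 (0.741).

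The tissue nearest to US-3 was PT-6, with a rho of 0.813. Both are labelled as mixed-breed, neutered and 10 years old. The study describes prostate tissue taken at necropsy from the dog of US-3, and neither its text nor the labels name the dog of each tissue. Its overview table counts that necropsy tissue with the dogs sampled alive. The 9 sequenced malignant samples of tissue stand there in the post mortem column. The carcinomas of that column have the same split of neutered and intact dogs as PT-1 to PT-9. The study also describes a repeat aspiration of the dog of US-3 right after euthanasia without saying which aspirate that was. The samples were treated as independent, and the comparison without PT-6 is given below.

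Expression was compared with edgeR's quasi-likelihood test in a fit of these 11 samples alone. A gene was called when its p-value, adjusted by the method of Benjamini and Hochberg (false discovery rate, FDR), was under 0.05. Of 14158 genes, 353 (2.49%) were called, of which 329 (2.32%) were higher and 24 (0.170%) lower in US-FNA than in tissue. The log2 fold changes of the higher genes ranged from 1.02 to 10.74 (median 3.27) and those of the lower genes from -8.51 to -1.44 (median -4.47). Over all genes tested, the median was -0.07. The lowest FDR was 0.000719, so that no gene reached the study's threshold of 0.00001 with edgeR, although 2147 (15.2%) had an unadjusted p under 0.05. DESeq2, the tool the study used, called 46 genes at that threshold. At an FDR under 0.05, DESeq2 called 1183 genes, and its split was less one-sided with 797 higher and 386 lower. It called 350 of the 353 edgeR genes as well.

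US-3 decided much of this list. No RNA integrity number could be determined for this aspirate, which the study kept for its acceptable electropherogram, whereas US-4 had one. By eye, the study scored blood contamination as strong in US-3 and weak in US-4. It is also not stated whether US-3 was the aspirate taken after euthanasia. The parts of RNA quality, of blood and of the time of sampling in the difference between the aspirates were not tested. Both aspirates lay above every tissue in 167 of the 329 genes called higher, only US-3 did so in 158 and only US-4 in 4. Regardless of any test, both were above every tissue in 629 genes (4.44% of those tested) and below every tissue in 517 (3.65%). Over all genes tested, only US-3 was above every tissue in 2041 and only US-4 in 1232. Only US-3 was below every tissue in 1559 and only US-4 in 1343. In the 158 genes, the median expression was 328 CPM (read counts scaled to a common library size) in US-3 and 6.74 CPM in US-4, while the median of the tissue means was 11.6 CPM. In the 167 genes, the corresponding values were 110 CPM, 43.2 CPM and 12.3 CPM. In 203 of the 329 genes US-3 exceeded US-4 more than 4-fold, and in 5 US-4 exceeded US-3 to this degree. Each of the 24 genes called lower had both aspirates below all 9 tissues. A single high aspirate can raise the group mean, whereas a mean this low needs both, so this pattern follows in part from the model.

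**Figure D2:**
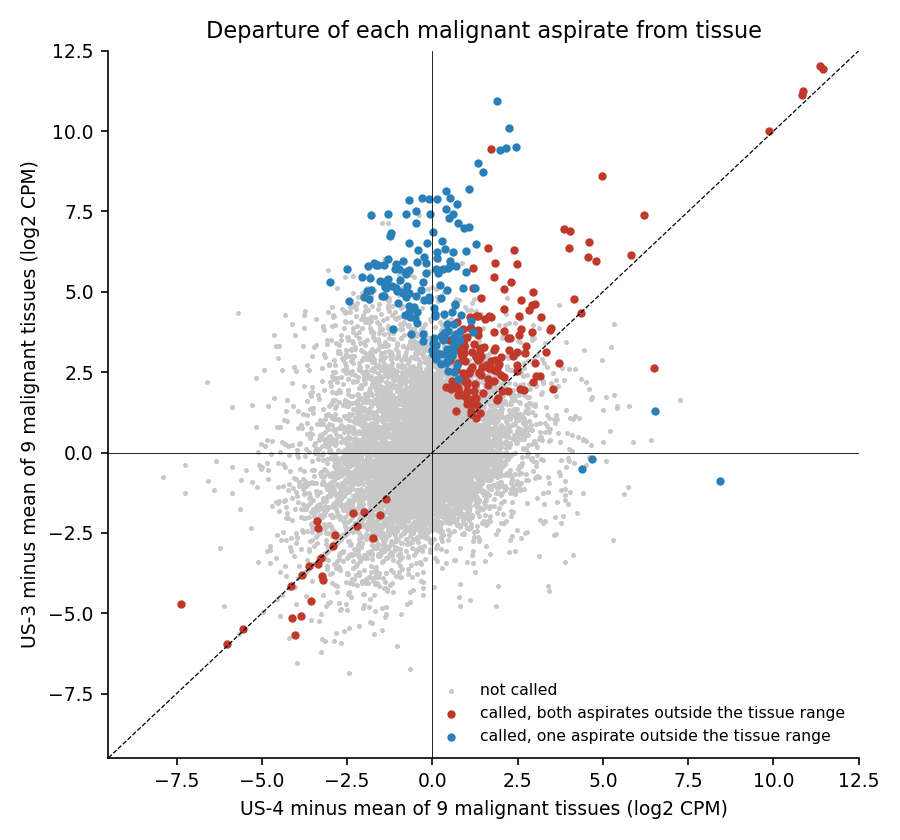
Each point is 1 of 14158 genes, placed by the log2 CPM of US-4 (x axis) and of US-3 (y axis) minus the mean of the 9 malignant tissues; the dashed line marks equal departure of both aspirates. Called genes with both aspirates outside the tissue range (167 higher, 24 lower) lie in the upper right and lower left, and 158 further called genes rise along the US-3 axis alone.

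When US-3 was left out, 19 genes were called for US-4 against the 9 tissues, and of the 349 genes of the main list that could be tested, 253 kept their direction. When US-4 was left out, 928 genes were called for US-3, and 349 of 352 genes kept their direction. A single aspirate has no spread of its own, so that both fits assume it to vary as the tissues do. The main list was called with the same samples, so a kept direction describes the list and tests nothing. Removing PT-2 lowered the number of calls to 140, removing PT-7 to 206 and removing PT-9 to 159. Without PT-6, which shares its labels with US-3, 251 genes were called and 233 of them belonged to the main list.

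The genes called higher took 17.5% of the counts on genes in US-3 and 4.83% in US-4. In tissue, they took 0.642% to 0.976% (median 0.870%). After subtraction of the 5 haemoglobin genes, 13.6% remained in US-3 and 1.85% in US-4. The genes were chosen by this same comparison, so these shares describe the list and test nothing.

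All 5 haemoglobin genes were called higher in US-FNA, with both aspirates above every tissue. HBB (ENSCAFG00000030286), the beta chain of adult haemoglobin, reached 25984 CPM in US-3 and 16552 CPM in US-4. The tissues ranged from 0.357 CPM in PT-6 to 51.7 CPM in PT-5 (median 4.30). Every tissue was thus far below the lower aspirate. The log2 fold change of HBB was 10.35 (SE 1.42, FDR 0.00665, edgeR).

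HBD (ENSCAFG00000029518), a second gene of the beta type, had 754 CPM in US-3 and 682 CPM in US-4, against 0 to 2.42 CPM in tissue. It was the haemoglobin gene with the smallest FDR, at a log2 fold change of 10.39 (SE 0.95, FDR 0.000939). Across the 9 tissues, its values rest on 0 to 12 counts each.

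HBA1 (ENSCAFG00000029904) and HBA2 (ENSCAFG00000032615) encode the alpha chain. HBA1 was at 9429 CPM in US-3 and 7792 CPM in US-4, and HBA2 at 11502 CPM and 8745 CPM. Neither exceeded 44.1 CPM in any tissue. Their log2 fold changes were 9.49 (SE 1.49, FDR 0.0104) for HBA1 and 9.56 (SE 1.46, FDR 0.0102) for HBA2, both from edgeR. Without US-3 neither was called (FDR 0.0802 and 0.0708), at a log2 fold change of 9.29 for each. Since the sequences of these paralogues are close, the division of reads between them is uncertain.

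HBM (ENSCAFG00000029224), the mu subunit, which is an alpha-like chain of low abundance, was at 189.5 CPM in US-3 and 81.7 CPM in US-4. Tissue held at most 2.14 CPM, and the log2 fold change was 7.14 (SE 0.82, FDR 0.0034).

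Together, the 5 haemoglobin genes made up 3.98% of the counts in US-3 (3.96% to 4.00%) and 2.98% in US-4 (2.96% to 2.99%), with 95% intervals by Wilson's method in brackets. In tissue the share ran from 0.000110% in PT-8 to 0.0142% in PT-5. On the log2 scale, the groups differed by 11.24 (exact permutation test, p = 0.0182, BH-adjusted 0.0455). These intervals cover counting error only. The share of haemoglobin transcripts thus moved with the sample type in every library, and its part in the remaining calls was not tested. Leaving out the 5 genes before normalisation gave 352 calls.

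Among the tumour genes named by the study, none differed between malignant US-FNA and malignant tissue beyond the spread of the samples. MKI67 (ENSCAFG00000013255), a marker of dividing cells, was at 73.7 CPM in US-3 and 54.2 CPM in US-4. The tissues spread widely, from 18.1 CPM in PT-3 to 412 CPM in PT-1 (median 103), with both aspirates inside that range. For MKI67, the log2 fold change was -0.95 (95% confidence interval -3.18 to 1.29, FDR 0.715, edgeR).

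PCNA (ENSCAFG00000006030), the sliding clamp of DNA replication, had 201 CPM in US-3, above every tissue, and 90.1 CPM in US-4. The tissues ranged from 49.6 to 146 CPM (median 97.5). PCNA had a log2 fold change of 0.58 (95% confidence interval -0.35 to 1.51, FDR 0.565, edgeR). It turned to -0.17 without US-3.

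MYC (ENSCAFG00000001086), a transcription factor that drives growth, was at 165.6 CPM in US-3 and 302 CPM in US-4, against 85.05 to 254 CPM in tissue (median 140.4). Only US-4 exceeded all tissues. The log2 fold change of MYC was 0.64 (95% confidence interval -0.25 to 1.52, FDR 0.496, edgeR).

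PMEPA1 (ENSCAFG00000031382), a membrane protein induced by androgen and TGF-beta, separated the 2 aspirates most clearly among these genes. It stood at 124.6 CPM in US-3 and at 518 CPM in US-4, which exceeded the highest tissue, PT-6, at 409 CPM. The lowest tissue, PT-8, had 93.5 CPM and the median was 162.6 CPM. The log2 fold change of 0.67 (95% confidence interval -0.62 to 1.96, FDR 0.639, edgeR) turned to -0.69 without US-4.

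CTNNB1 (ENSCAFG00000005204), which encodes beta-catenin of cell junctions and Wnt signalling, had 896 CPM in US-3 and 2453 CPM in US-4. Tissue ranged from 327 CPM in PT-1 to 2458 CPM in PT-7 (median 1371). Its log2 fold change was 0.24 (95% confidence interval -1.16 to 1.64, FDR 0.896, edgeR) and turned to -0.65 without US-4, to -0.07 with neutered dogs only and to a value that rounds to 0 under scaling by library size alone.

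No difference beyond the spread of the samples was found for the prostate-specific genes either. KLK2 (ENSCAFG00000002907), the kallikrein secreted in bulk by the healthy canine gland, amounted to 5.76 CPM in US-3 and 5.05 CPM in US-4. In tissue it ran from 0.428 CPM in PT-1 to 663 CPM in PT-9, with 47.3 CPM as the second highest value and a median of 8.94 CPM. The aspirates lay in the middle of the tissues, with 4 tissues below and 5 above them. The log2 fold change of -3.99 (SE 2.80, FDR 0.543, edgeR) rested on PT-9 and was -1.42 without it.

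KLK4 (ENSCAFG00000002905), a related protease of the prostate, was at 0.606 CPM in US-3 and 1.68 CPM in US-4, which correspond to 2 and 6 reads. The tissues ranged from 0.161 to 6.04 CPM (median 1.89). KLK4 had a log2 fold change of -0.76 (95% confidence interval -3.27 to 1.74, FDR 0.805, edgeR).

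ACPP (ENSCAFG00000006237), prostatic acid phosphatase, was at 1.52 CPM in US-3 and 12.6 CPM in US-4. Tissue ranged from 0.714 CPM in PT-1 to 22.2 CPM in PT-8 (median 3.18), with 1 tissue above both aspirates and 2 below both. For ACPP, the log2 fold change was 0.42 (95% confidence interval -1.93 to 2.77, FDR 0.892, edgeR). It turned to -1.76 without US-4.

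None of these 8 genes was called in any of the alternatives tried. Their confidence intervals are wide, and a difference of 2-fold or more in either direction is inside the interval of MKI67, CTNNB1, KLK2, KLK4 and ACPP.

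**Figure D3:**
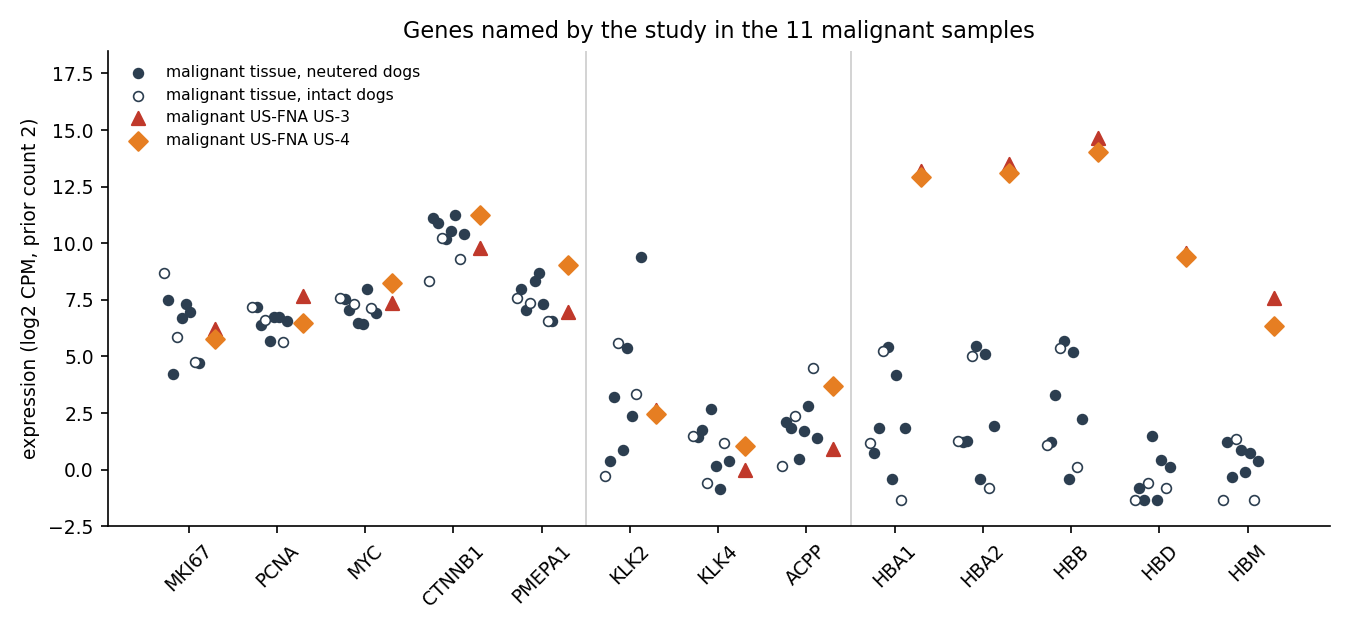
Expression (y axis, log2 CPM with a prior count of 2) of the tumour genes (left), prostate genes (middle) and haemoglobin genes (right) in the 9 malignant tissues (circles, filled for neutered dogs) and both malignant aspirates (triangle US-3, diamond US-4). The aspirates fall within or near the tissue range for the first 8 genes and far above it for all 5 haemoglobin genes.

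The deposited files do not pair Ensembl IDs with gene names, and no name was found for the other called genes. Of those with both aspirates above all tissues, the largest log2 fold change belonged to ENSCAFG00000029568, with 10.74 (SE 1.48, FDR 0.00665, edgeR). It was not called with neutered dogs only (FDR 0.0628). It had 5449 CPM in US-3 and 3871 CPM in US-4, and at most 13.1 CPM in any tissue. Its highest tissue was PT-5, as for HBB, HBD, HBA1 and HBA2.

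ENSCAFG00000025711 came next among the genes without a name. It had 87 reads in US-3, or 26.4 CPM, 32 reads in US-4, or 8.98 CPM, and no read in any tissue. Measured against a floor of 3 counts over all tissues, it was at least 285-fold higher in the mean of both aspirates (FDR 0.0298, edgeR). It was not called with DESeq2 (FDR 0.135), under scaling by library size alone (0.0516), with neutered dogs only (0.0786), without US-3 (0.39) or without PT-2 (0.0522).

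In the opposite direction, ENSCAFG00000013320 had no read in either aspirate and 2.04 CPM to 33.6 CPM in the tissues (median 6.97). Against 3 counts over both aspirates, the mean of the tissues amounts to at least 20.7-fold lower expression in US-FNA (FDR 0.0433, edgeR). PT-4 raised that mean with 33.6 CPM, while the next highest tissue had 9.93 CPM. The call was lost without US-3, without US-4 and without PT-1, PT-2, PT-3, PT-5, PT-6, PT-7, PT-8 or PT-9, with FDRs of 0.054 to 0.396, and with neutered dogs only (FDR 0.0848).

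ENSCAFG00000029925 was likewise without a read in both aspirates. All 9 tissues had 2.94 CPM to 11.5 CPM (median 4.28), on 11 to 57 reads each. Its expression was at least 13.0-fold lower in US-FNA (FDR 0.012, edgeR), a call that was lost without US-3 (0.153) and with neutered dogs only (0.063). In total, 4 of the 24 genes called lower had 0 counts in both aspirates, and the median expression of all 24 was 1.21 CPM in US-3 and 1.68 CPM in US-4, against a median tissue mean of 26.4 CPM.

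The 5 non-malignant aspirates and 9 non-malignant tissues of the series, all from intact dogs, allow the same contrast in samples that share no library with the malignant comparison. Their ages spread more widely than in the malignant groups, from 4 to 10 years for the aspirates and from 1 to 16 years for the tissues. There, edgeR called 2377 of 11956 genes (19.9%), of which 985 (8.24%) were higher and 1392 (11.6%) lower in US-FNA. Of the 353 genes called in malignant samples, 272 were also tested in non-malignant samples. The direction was the same in both diagnoses for 234 of them (86.0%), compared with 62.3% of all 11498 genes tested in both.

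Of 251 genes called higher in malignant US-FNA and tested in both diagnoses, 215 were higher in non-malignant US-FNA as well, and 105 were also called. Of the 21 called lower, 19 had the same direction and 14 were called. Together, these 119 genes were 33.7% of the malignant list and 5.01% of the non-malignant list. The whole malignant list of 353 includes 78 higher and 3 lower genes that were not tested in non-malignant samples. Another 2 genes were called in opposite directions.

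Of the 158 genes in which only US-3 exceeded all tissues, 108 were tested in non-malignant samples. Among these, 86 were higher in non-malignant US-FNA and 44 (40.7%) were called higher. For the 167 genes in which both aspirates exceeded all tissues, 128 of 142 were higher and 61 (43.0%) were called. Both shares of called genes can be read beside the 8.24% of all genes. The median log2 fold change of the genes called higher was 0.65 in non-malignant samples and 2.79 in malignant samples. The genes were chosen for a high value in the latter, so these medians do not compare the size of the effects.

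HBB was higher by 8.45 on the log2 scale in non-malignant US-FNA (SE 0.93, FDR 5.74e-05, edgeR), with 102.5 to 8879 CPM in the 5 aspirates and at most 27.6 CPM in tissue. None of the 8 tumour and prostate genes was called there, with FDRs of 0.0796 for MYC to 0.953 for PMEPA1. ENSCAFG00000029925, in contrast, was at 21.3 to 36.6 CPM in the non-malignant aspirates and 20.7 to 53.3 CPM in non-malignant tissue.

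The difference between the diagnoses was tested as an interaction in a fit of all 25 samples. All non-malignant dogs were intact and both malignant aspirates came from neutered dogs. Diagnosis and neutering therefore cannot be told apart in this test. Of 15296 genes, 202 (1.32%) had an FDR under 0.05, and in 164 of them the log2 fold change of US-FNA against tissue was the higher one in malignant samples. Among the 353 genes called in malignant samples, 79 (22.4%) had an interaction, 73 positive and 6 negative. The calls and the interaction use the same malignant samples, so this share is a description. ENSCAFG00000029925 was 1 of the 6, with an interaction of -7.29 (SE 1.05, FDR 0.00148). For the 5 haemoglobin genes the interaction ranged from -0.84 for HBM to 1.89 for HBB, with FDRs of 0.624 to 0.805. For the 8 tumour and prostate genes, the FDR of the interaction was at least 0.421.

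**Figure D4:**
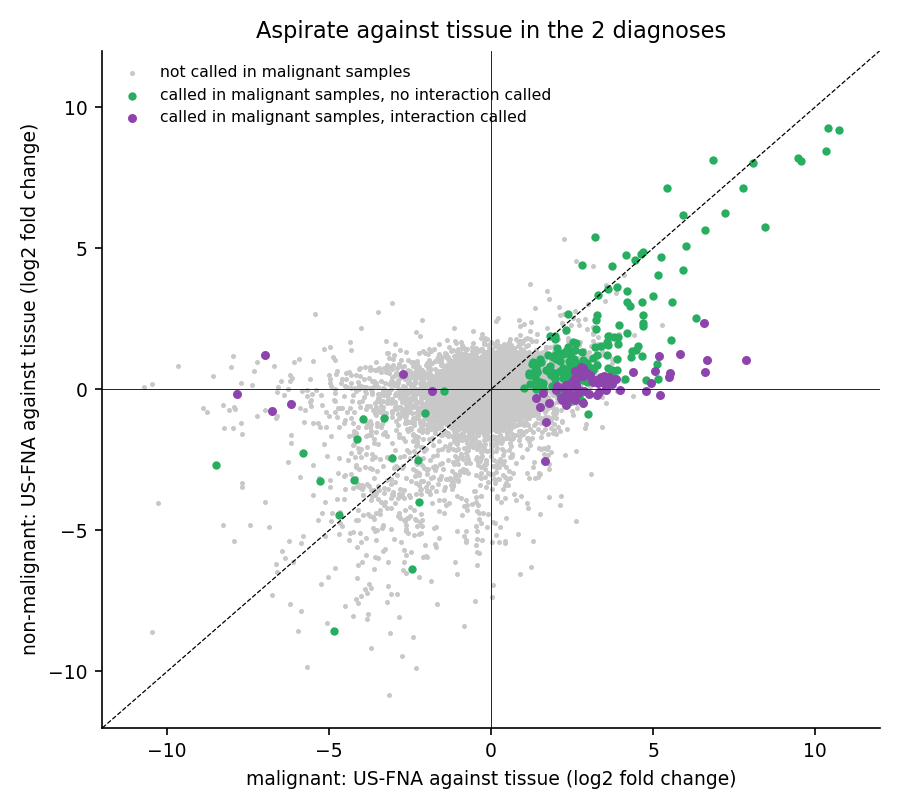
Log2 fold change of US-FNA against tissue in malignant samples (x axis, 2 against 9) and in non-malignant samples (y axis, 5 against 9) for 11498 genes; the dashed line marks equality. Of the genes called in malignant samples, 234 of 272 share their direction; purple points also have a called interaction and green points do not.

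Neutering differed between the groups compared, since both aspirated dogs and only 6 of the 9 dogs with tissue were neutered. With the 6 neutered dogs alone, 14 genes were called, 13 of them from the main list. All 349 genes of the main list that could be tested there kept their direction, each with an unadjusted p under 0.05 (edgeR). The median log2 fold change of those called higher was 3.21. The main list was called with the same aspirates and these 6 tissues among others, so these values describe the list and test nothing. HBD and HBM remained called, while HBB, HBA1 and HBA2 had FDRs of 0.0602 to 0.063 (edgeR).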

How the data were processed

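RNA-Seq read counts of 25 canine prostate samples were used, 11 of them malignant. The authors deposited raw read counts per Ensembl gene ID for each sample, with no normalisation. Per the study's methods, single reads were trimmed with Trimmomatic (version 0.32), mapped with TopHat2 to CanFam3.1 with the annotation of Ensembl release 85 and counted with htseq-count at default settings, for which no version is given in the sources used here. The htseq tallies were left out of library sizes and tests. Alignments that htseq-count tallied as without a gene made up 58.8% to 70.3% of all, and ambiguous ones 0.163% to 0.502%. Whether the former lay outside annotated genes was not tested. No genome or annotation of this build was used, and 0 of the 32220 IDs matched the RefSeq gene table at hand, so names are those the study pairs with IDs, and marker lists written as gene symbols could not be applied. Coordinates and sequences are not given.

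Genes were filtered with filterByExpr (minimum count 10, minimum total 15), normalised by TMM and tested with edgeR 4.0.16 (quasi-likelihood test, R 4.3.3), with Benjamini-Hochberg adjustment. DESeq2 1.42.0 was an alternative. CPM values use TMM library sizes of the 11 samples, and of the 14 non-malignant samples for these. Each SE was derived from the size of the log2 fold change and its F statistic. For single values per library, exact permutation tests (two-sided) were used. Floors are 3 counts over the group, and a fold against a floor uses the mean CPM of the other group. The models were tested on simulated data. Named genes were those the study pairs with IDs and, without a name, the 2 higher and 2 lower genes of largest absolute log2 fold change with FDR under 0.05, both aspirates beyond every tissue and at least 1 CPM in the higher group. The members and lists were chosen with earlier results of these data known. Labels name no separate cultures or batches, and each sample was taken as 1 dog.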

Additional observations from a re-analysis of the deposited data

Results flagged for a closer look

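Samples far from the others were looked for by Dixon's criterion in the 9 malignant tissues, for 13 named genes on the log2 CPM scale and 5 library measures. Chance alone marks about 1 group in 20. Of these 18 values, 1 was marked, the number of genes with 10 counts at equal depth, which was 11236 in PT-4 (Dixon ratio 0.562, above the critical value). Both aspirates, with 11921 and 11335, lay above it. Diagnosis and neutering cannot be told apart in the interaction test. By this test, the effect of sample type differed between malignant and non-malignant samples in 202 genes (edgeR, FDR under 0.05), 164 of them with the higher log2 fold change in malignant samples. Without US-3 this number was 69 and without US-4 it was 577.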

How the results depend on the processing

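The number of genes called (353) was 370 with DESeq2's size factors in edgeR, 425 without a filter on low counts and 352 without the haemoglobin genes. It was 1183 with DESeq2, 1176 in a fit of all 25 samples (895 higher), 130 with scaling by library size alone and 14 with the 6 neutered dogs. With the 3 intact dogs alone, chosen after seeing the data, edgeR called 0 genes, haemoglobin genes included, and 884 had an unadjusted p under 0.05. At an FDR under 0.00001 it was 0 with edgeR (2147 genes at an unadjusted p under 0.05) and 46 with DESeq2. Leaving out 1 sample at a time gave 19 (without US-3) to 928 (without US-4) calls. The cause of these shifts was not tested. Library size scaling moved the median log2 fold change of all genes from -0.07 to -0.35, and DESeq2 to 0.10.

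The interaction counted 624 genes with DESeq2, and 69 to 577 when an aspirate was left out. The difference in the share of the 10 most abundant genes (3.64 percentage points) was 1.14 to 6.14 with 1 aspirate left out. The number of genes detected was lower (-530.2) in US-FNA at a minimum of 10 counts and turned to 530.1 higher at a minimum of 1 count (exact permutation test, p = 0.164). With HBB and HBD alone, the log2 haemoglobin share differed by 11.67. No paired analysis was possible because no label ties an aspirate to a tissue of the same dog. With 2 aspirates, differences inside the wide intervals of the tumour and prostate genes were not detectable.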

Other observations

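Of all 32220 gene IDs, a few were present in one kind of malignant sample and without a read in the other. No read in any of the 9 malignant tissues and at least 10 reads in both aspirates were found for 3 genes. The reverse, at least 10 reads in every tissue and none in either aspirate, was found for 2 genes. Genes with at least 10 reads in 1 aspirate and no read in the other or in any tissue numbered 6 for US-3 and 1 for US-4. These numbers depend on depth, which was lower in both aspirates than in every tissue.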
